A study of Homo sapiens with 4 samples.

Results

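The genes described here are type I interferon response genes, given as a list of 41 human gene symbols. They were found by matching each symbol to the gene names of the deposited count tables, which matched 40 of the 41 listed genes among 54628 genes in the tables. The symbol RIGI was not matched, because the tables hold that gene under its older name DDX58, and it is given on its own below. Expression was measured by sequencing poly(A) RNA of Panc1 cells, a human line established from pancreatic ductal adenocarcinoma. The labels assign 2 libraries to siRNA (small interfering RNA) targeting HMGB2, a high mobility group protein of chromatin, and 2 libraries to scramble siRNA as the control. All 4 libraries are from the same line, and the labels give no time of harvest and do not say that replicates were separate cultures, so each p-value reflects only how far these libraries varied, possibly for technical reasons.

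Type I interferons are secreted proteins made when a cell senses foreign or misplaced nucleic acid. Cytosolic sensors such as RIG-I and MDA5 recognise double-stranded RNA and signal through IRF3 and IRF7 to interferon genes such as IFNB1. The secreted interferon binds its receptor, the kinases JAK1 and TYK2 are activated, and STAT2 and IRF9 enter the complex ISGF3, which binds the interferon-stimulated response element (ISRE) in the promoters of its target genes. Many of those targets encode antiviral proteins, and many tumour cell lines express some of them without added interferon.

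HMGB2 itself went against the labels, so it is stated with every direction below. HMGB2 (GRCh38 chromosome 4, 173331376 to 173334358) had 4021 and 2746 counts under the HMGB2 siRNA label against 346 and 319 under the scramble label, and the column headers of all 4 tables name the other treatment. Its log2 fold change was 3.07 ± 0.08 (SE; edgeR, adjusted p = 1.54e-33). The former are therefore called the HMGB2 siRNA-labelled (HMGB2-high) libraries and the latter the scramble-labelled (HMGB2-low) libraries. Total counts lay between 20340695 and 31852391 per library. A gene without a read could have had up to 3 counts, or 0.0942 to 0.147 CPM (counts per megaread) of the unscaled library total, a limit for counting error only. The CPM values of genes use the library total as scaled by TMM, the trimmed mean of M values. The keratins KRT8 and KRT18, which mark epithelial cells, had mean levels of 2499 and 1048 CPM. Of 8 genes chosen to mark the identity of the line, all tested, 4 were higher in the HMGB2 siRNA-labelled (HMGB2-high) libraries (KRT19, KRT8, KRT7 and MSLN), 1 was lower and 3 did not pass. That is 50% higher and 12.5% lower, beside 16.7% and 14.1% of all tested genes. Among them KRT19 was 1.61-fold higher (edgeR, adjusted p = 3.15e-11) and KRT8 1.22-fold higher (adjusted p = 0.00327). Their summed level was 7076 and 6996 CPM in the HMGB2-high and 6484 and 5496 CPM in the HMGB2-low libraries, so these markers moved with the groups, and their part in the differences given below was not tested. Of 12 immune cell markers, 4 (the T cell genes CD3E and CD3D, the B cell gene MS4A1 and the dendritic cell gene LILRA4) had 0 counts in every library. The summed level of these 12 genes was 106 and 111 CPM in the HMGB2-high and 122 and 99.7 CPM in the HMGB2-low libraries, nearly all of it from CD68, a lysosomal protein gene with a mean of 108 CPM. Of 8 stromal and endothelial markers, DCN had 0 counts in every library, and their summed level was 61.9 and 61.9 against 77.5 and 56.1 CPM, nearly all of it from COL1A1 with a mean of 63.2 CPM. PDGFRB, with 26 and 22 against 7 and 4 counts, was the only marker of these 2 lists that passed the test.

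A minority of the interferon response genes differed between the groups, and those that did were mostly higher in the HMGB2 siRNA-labelled (HMGB2-high) libraries. Of the 40 genes, 33 had enough counts to test. Among these, 10 were higher (IFIT1, IFIT2, IFIT3, OAS2, OAS3, OASL, IFI6, USP18, DDX60L and SAMD9), 3 were lower (ISG15, IRF1 and STAT2) and 20 did not pass an adjusted p of 0.05 in the quasi-likelihood test of edgeR. In the same test 16.7% of all 15161 tested genes were higher, 14.1% were lower and 30.8% passed in either direction, against 30.3%, 9.09% and 39.4% of the tested interferon response genes. Their median log2 fold change was 0.25 (n = 33 genes), beside -0.01 for all tested genes. Only SAMD9 and OAS2 were more than 2-fold higher, as were 1.54% of all tested genes.

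The labelled groups did not overlap in CPM for 27 of the 33 genes, of which 19 were above and 8 below in the HMGB2 siRNA-labelled (HMGB2-high) libraries. Over all tested genes these shares were 32.0% above and 31.6% below. Summed over all 40 genes the level was 895 and 914 CPM in the HMGB2-high libraries and 902 and 853 CPM in the HMGB2-low libraries, so the sums overlapped. ADAR alone had a mean of 206 CPM. With upper-quartile or total-count scaling 7 of these genes were higher and 4 lower, EIF2AK2 being the added lower gene. Over all tested genes the share of calls that were higher fell from 54.3% to 42.0% with upper-quartile and to 43.3% with total-count scaling. The gap between the median of the interferon response genes and that of all genes was 0.25 with TMM, 0.25 with upper-quartile and 0.26 with total-count scaling.

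**Figure D1:**
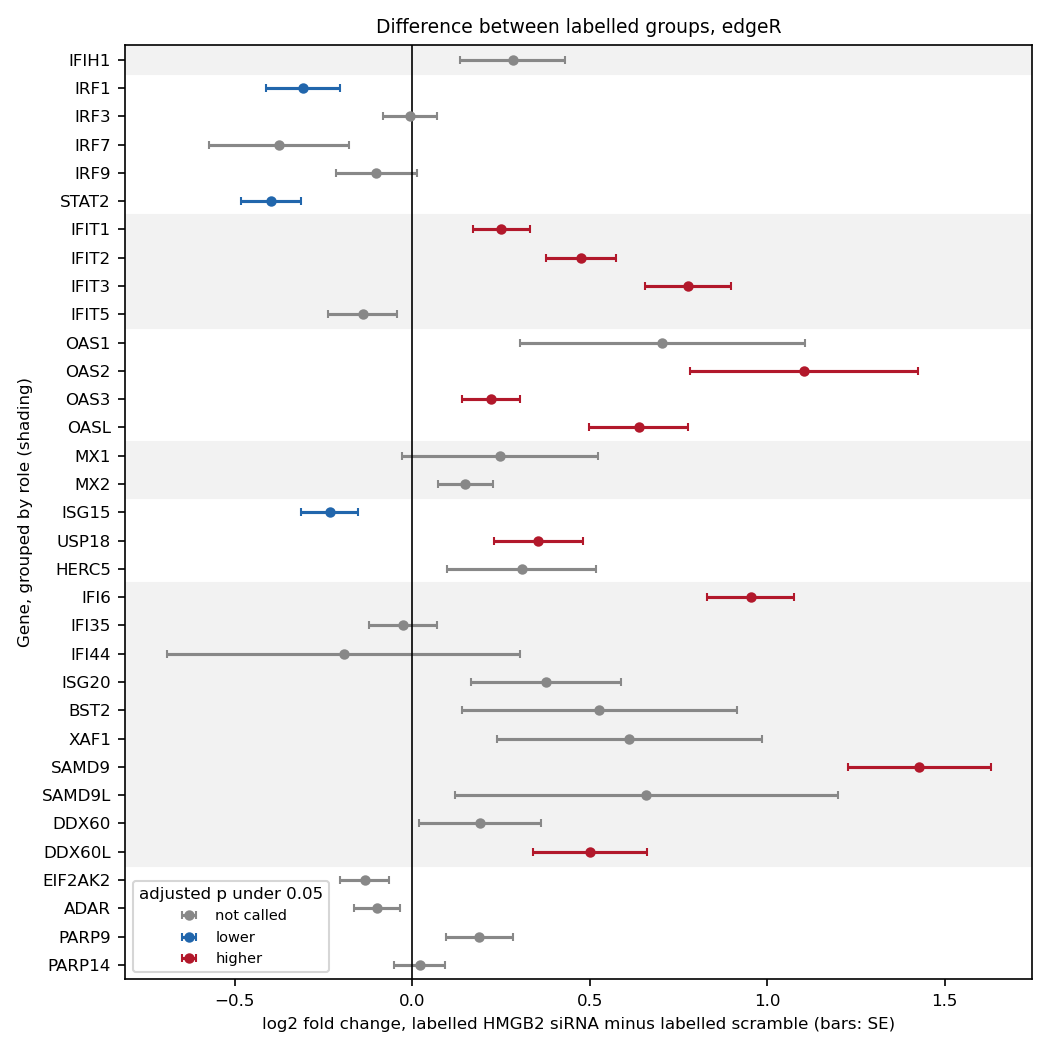
The x axis shows the log2 fold change (labelled HMGB2 siRNA, HMGB2-high, minus labelled scramble, HMGB2-low) of each of the 33 tested genes, with its SE as a bar, and the y axis the genes grouped by role. The 10 genes called higher lie between 0.22 and 1.43 and the 3 called lower between -0.40 and -0.23.

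Interferon ligands had few reads or none in every library, too few for a test. IFNB1 (chromosome 9, 21077104 to 21077942), which encodes interferon beta, had 1, 0, 0 and 0 counts, in the order HMGB2 siRNA replicates 1 and 2 and scramble replicates 1 and 2. That order is used for every list of 4 values below. Of 20 further ligand genes of types I, II and III, 0 had enough counts to test and 15 had 0 counts in all libraries, including IFNG. The lambda interferon genes IFNL1 (13, 5, 8 and 5 counts) and IFNL3 (7, 5, 3 and 5 counts) and the epithelial gene IFNE (10, 4, 3 and 8 counts) had a few reads on both sides. No group can be ranked above the other at these counts.

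Of the cytosolic RNA sensors, IFIH1 and RIG-I were expressed at moderate levels and neither passed the test. IFIH1, which encodes MDA5 (chromosome 2, 162267074 to 162318684), had 9.002, 9.60, 8.27 and 6.96 CPM (log2 fold change 0.28 ± 0.15 SE, adjusted p = 0.146). Its HMGB2-high libraries lay above both HMGB2-low libraries, and it passed without scramble replicate 1 (0.42, adjusted p = 0.0375). RIG-I, listed as DDX58 (chromosome 9, 32455302 to 32526196), had 1220, 703, 758 and 694 counts and a log2 fold change of 0.11 ± 0.09 (SE), and its groups overlapped (adjusted p = 0.347). Among 19 other genes of nucleic acid sensing, 15 were tested, of which 5 were higher and 1 was lower in the HMGB2 siRNA-labelled (HMGB2-high) libraries. The shares were 33.3% and 6.67%, beside 16.7% and 14.1% of all tested genes. SAMHD1, a deoxynucleotide hydrolase that restricts viruses, had 31.3, 29.05, 18.1 and 17.2 CPM, and TRAF3, an adapter of the sensor pathways, had 85.5, 85.1, 58.1 and 54.1 CPM. Both were higher without overlap, by 0.78 ± 0.10 and 0.61 ± 0.07 on the log2 scale (SE), with adjusted p of 1.18e-08 and 2.18e-09. The RNA sensor gene DHX58, named after its values were seen, was low at 88, 52, 43 and 25 counts. DHX58 was called higher at 0.76 ± 0.29 (SE; edgeR, adjusted p = 0.0398), also without overlap, and its call was not checked under the alternatives. MYD88, the adapter of Toll-like receptors, was the lower one (-0.28), but not without HMGB2 siRNA replicate 1 (adjusted p = 0.166) or replicate 2 (0.0692). CGAS, the cytosolic DNA sensor, was called higher at 0.21 (adjusted p = 0.0394), a call lost without each library other than scramble replicate 2 and with upper-quartile or total-count scaling, DESeq2 or thinned libraries.

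The transcription factors of the response went the other way or did not pass. STAT2, the STAT protein particular to type I and III interferon signalling (chromosome 12, 56341597 to 56360161), had 34.3, 31.8, 42.9 and 44.4 CPM. Both HMGB2-high libraries lay below both HMGB2-low ones, with a log2 fold change of -0.40 ± 0.08 (SE; adjusted p = 0.000177). IRF1, an interferon-induced activator (chromosome 5, 132481609 to 132490789), had 17.1, 17.9, 22.3 and 20.9 CPM, again without overlap, and a log2 fold change of -0.31 ± 0.10 (SE; adjusted p = 0.0195). The IRF1 call was lost with no low-count filter and with DESeq2, and it also depended on which libraries were used. The log2 fold change of IRF1 ranged from -0.35 to -0.25 when single libraries were left out. IRF3, the factor that sensors activate, had 55.1, 57.7, 58.9 and 54.3 CPM, with overlapping groups and a log2 fold change of -0.01 ± 0.08 (SE). IRF7, the inducible relative of IRF3, had 4.01, 3.80, 5.50 and 4.66 CPM (adjusted p = 0.151), and IRF9, the DNA-binding part of ISGF3, had 14.2, 14.4, 15.6 and 15.1 CPM (adjusted p = 0.551). For IRF7 and IRF9 both HMGB2-high libraries were below both HMGB2-low ones, but by less than the test could separate. IRF3 shares 387 exonic bases with BCL2L12 on the opposite strand, and IRF7 and IRF9 also have exons on alternative sequences of the assembly, so their counts are less certain.

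The receptor and JAK-STAT genes around these factors moved in both directions. Of 13 genes, all tested, 2 were higher and 4 lower in the HMGB2 siRNA-labelled (HMGB2-high) libraries. These shares, 15.4% and 30.8%, stand beside 16.7% and 14.1% of all tested genes. IRF2, a relative of IRF1 that often represses the same sites, had 19.8, 20.8, 12.3 and 12.7 CPM and was 1.62-fold higher (adjusted p = 1.95e-06). The lower genes were STAT3 (-0.37), the interferon gamma receptor chain IFNGR1 (-0.28), the receptor kinase TYK2 (-0.29) and IRF5 (-0.87, on the log2 scale). The last 3 lost the call without HMGB2 siRNA replicate 2 (adjusted p of 0.357, 0.218 and 0.125), IFNGR1 also without replicate 1 of that label (0.0738) and IRF5 also without scramble replicate 2 (0.177). The type I receptor chains IFNAR1 (-0.08) and IFNAR2 (-0.19) and the kinase JAK1 (-0.15) did not pass, although upper-quartile scaling put IFNAR2 and JAK1 under the threshold, the latter also with total counts.

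**Figure D2:**
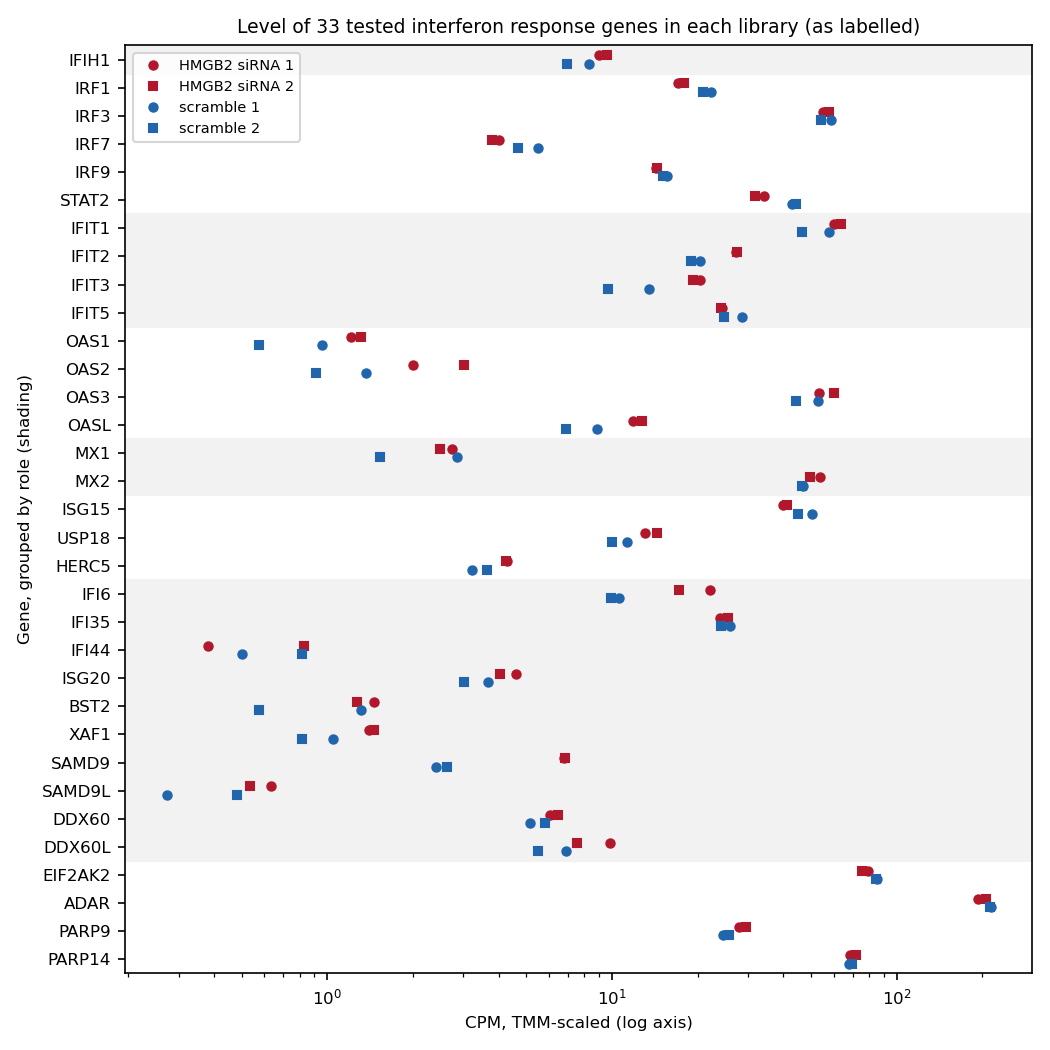
The x axis shows TMM-scaled CPM on a log scale, with 1 point per library for the 33 tested genes, and the y axis the genes grouped by role. Red points are the HMGB2 siRNA-labelled (HMGB2-high) libraries and blue points those labelled scramble (HMGB2-low), and SAMD9 and IFI6 show red points clear of the blue ones to the right, while those of IRF3 and PARP14 overlap.

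The IFIT genes lie close together on chromosome 10 and encode tetratricopeptide proteins that bind viral RNA or, in the case of IFIT2 and IFIT3, join complexes with IFIT1. IFIT1, IFIT2 and IFIT3 were higher in the HMGB2 siRNA-labelled (HMGB2-high) libraries and IFIT5 was not. IFIT3 (89327997 to 89340968) had 20.4, 19.2, 13.4 and 9.65 CPM, and both HMGB2-high values stood above both HMGB2-low values. Its log2 fold change was 0.78 ± 0.12 (SE), or 1.71-fold, with an adjusted p of 1.18e-06. IFIT2 (89302046 to 89309271) had 27.4, 27.5, 20.4 and 19.01 CPM and was 1.39-fold higher, with close replicates in both groups (adjusted p = 0.000142). IFIT1 (89392623 to 89406487) was the most abundant of the family, at 60.4, 63.8, 57.6 and 46.5 CPM, and its difference was small, 0.25 ± 0.08 on the log2 scale (SE; adjusted p = 0.0138). It did not pass with upper-quartile or total-count scaling or DESeq2. Scramble replicate 1 came close to the HMGB2-high libraries for IFIT1, and the call was lost without scramble replicate 2 (0.11, adjusted p = 0.309), as it was without either HMGB2 siRNA replicate (0.0644 and 0.191). IFIT5 (89414568 to 89420997) had 24.2, 24.1, 28.5 and 24.7 CPM, a log2 fold change of -0.14 ± 0.10 (SE) that did not pass (adjusted p = 0.297). Differences between the log2 fold changes of neighbouring genes were not tested.

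The oligoadenylate synthetase genes encode enzymes that make 2′-5′ oligoadenylates on double-stranded RNA, except OASL, which lacks that activity. OAS1, OAS3 and OAS2 are neighbours on chromosome 12 and OASL lies elsewhere on it. OASL (121017761 to 121039246) had 11.8, 12.8, 8.86 and 6.86 CPM and was 1.56-fold higher in the HMGB2 siRNA-labelled (HMGB2-high) libraries, without overlap (log2 fold change 0.64 ± 0.14 SE, adjusted p = 0.000306). OAS2 (112978466 to 113011723) rested on 63, 62, 30 and 19 counts and was 2.15-fold higher (log2 fold change 1.10 ± 0.32 SE, adjusted p = 0.00621), a call lost without HMGB2 siRNA replicate 2 (adjusted p = 0.188) or scramble replicate 2 (0.0639). OAS3 (112938463 to 112973251), the most abundant of the 4, had 53.5, 60.2, 52.7 and 44.4 CPM, and its log2 fold change of 0.22 ± 0.08 (SE) passed with an adjusted p of 0.0327. The upper HMGB2-low library of OAS3 was within 1 CPM of the lower HMGB2-high one, and the call held only when all libraries or all but scramble replicate 1 were used. OAS1 had 38, 27, 21 and 12 counts, a log2 fold change of 0.70 ± 0.40 (SE) that did not pass (adjusted p = 0.192), so all 4 family members had positive values and 3 passed.

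The dynamin-like GTPases MX1 and MX2 sit next to each other on chromosome 21, and neither passed. MX2 (41361944 to 41409393), which acts on retroviral capsids, had 53.8, 49.7, 46.9 and 46.6 CPM, a log2 fold change of 0.15 ± 0.08 (SE; adjusted p = 0.145). MX1 (41420329 to 41459214), which blocks influenza virus and is a usual marker of interferon exposure, was low at 86, 51, 63 and 32 counts, with overlapping groups. Its log2 fold change of 0.25 ± 0.28 (SE) changed sign without scramble replicate 2 (-0.12). Per kilobase of exon, MX2 was at 11.6 and 10.5 CPM and MX1 at 0.447 and 0.377 CPM in the HMGB2-high and HMGB2-low group means. The level of MX2 was thus above that of MX1 in both groups.

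Genes of the ISG15 system, a ubiquitin-like modifier attached to target proteins, did not all move in the same direction. ISG15 itself (chromosome 1, 1013497 to 1014540) had 39.9, 41.3, 50.2 and 45.1 CPM and was lower in the HMGB2 siRNA-labelled (HMGB2-high) libraries, by a log2 fold change of -0.23 ± 0.08 (SE; adjusted p = 0.0236). It had the highest level per length of the 40 genes, 63.7 and 74.8 CPM per kilobase of exon in the 2 groups. The ISG15 call was lost with no low-count filter and with DESeq2. USP18, the protease that removes ISG15 and also restrains the interferon receptor (chromosome 22, 18149855 to 18177397), went the other way with 13.01, 14.4, 11.3 and 10.03 CPM and a log2 fold change of 0.35 ± 0.13 (SE; adjusted p = 0.0261). USP18 did not pass with upper-quartile or total-count scaling or DESeq2. HERC5, the main human ligase for ISG15, had 4.26, 4.24, 3.23 and 3.65 CPM and did not pass (adjusted p = 0.286), and its neighbour HERC6 had 7, 2, 8 and 5 counts. The other enzymes of the conjugation chain, chosen for mention after their values were seen, were UBE2L6 (11.9, 12.2, 7.95 and 6.72 CPM), which was 1.64-fold higher with an adjusted p of 5.62e-05, and UBA7 (77, 51, 35 and 29 counts), which had a log2 fold change of 0.72 and an adjusted p of 0.0528 (0.0366 with no low-count filter). The USP18 call held only without scramble replicate 1 and the ISG15 call only without scramble replicate 2 when single libraries were left out.

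SAMD9 had the largest difference of the list among the called genes, and IFI6 followed OAS2. SAMD9, a cytoplasmic protein that limits poxvirus growth (chromosome 7, 93099518 to 93117979), had 213, 140, 53 and 55 counts, or 6.78, 6.82, 2.41 and 2.64 CPM. The 2 replicates of each group nearly coincided, the HMGB2-high libraries stood far above, and the gene was 2.69-fold higher (log2 fold change 1.43 ± 0.20 SE, adjusted p = 1.22e-07). Its neighbour SAMD9L (93130056 to 93148385) was close to the detection limit with 20, 11, 6 and 10 counts and did not pass (0.66 ± 0.54 SE, adjusted p = 0.388). IFI6, a small membrane protein of mitochondria and endoplasmic reticulum (chromosome 1, 27666061 to 27672229), had 692, 353, 232 and 206 counts, or 22.01, 17.2, 10.5 and 9.89 CPM. Its HMGB2-high replicates differed from each other more than its HMGB2-low ones, but both were above, and it was 1.94-fold higher (log2 fold change 0.95 ± 0.12 SE, adjusted p = 1.37e-08).

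DDX60 and DDX60L are neighbouring helicase genes on chromosome 4. DDX60L (168356735 to 168480514) had 9.80, 7.55, 6.90 and 5.47 CPM and was 1.42-fold higher in the HMGB2 siRNA-labelled (HMGB2-high) libraries (adjusted p = 0.0134), while DDX60 (168216293 to 168325981) had 6.08, 6.43, 5.13 and 5.81 CPM and did not pass (adjusted p = 0.441). With DESeq2 DDX60L did not pass. The DDX60L call was lost without HMGB2 siRNA replicate 1 (0.29, adjusted p = 0.44) and without scramble replicate 2. Of the remaining effectors, IFI35 was even at 23.9, 25.6, 26.03 and 24.2 CPM. The exonuclease gene ISG20 (145, 83, 81 and 63 counts), the apoptosis factor gene XAF1 (44, 30, 23 and 17 counts) and the virus-tethering protein gene BST2 (46, 26, 29 and 12 counts) had log2 fold changes of 0.38, 0.61 and 0.53 that did not pass. IFI44, with 12, 17, 11 and 17 counts, had overlapping groups and a value whose sign changed when single libraries were left out. None of these 5 genes passed the test at this depth.

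The abundant enzymes of double-stranded RNA and ADP-ribose biology were nearly level. ADAR, the adenosine deaminase that edits double-stranded RNA (chromosome 1, 154582057 to 154627997), had 194, 205, 214 and 213 CPM, the highest CPM of the list, and a log2 fold change of -0.10 ± 0.06 (SE; adjusted p = 0.257). Its exons share 2652 bases with CHRNB2 on the opposite strand, which had 12, 10, 12 and 14 counts. EIF2AK2, which encodes the kinase PKR that halts translation on double-stranded RNA (chromosome 2, 37099210 to 37157065), had 79.02, 75.6, 84.99 and 84.9 CPM. Its log2 fold change of -0.13 ± 0.07 (SE) did not pass with TMM (adjusted p = 0.143) but did with upper-quartile (-0.19) and total-count scaling (-0.18). PARP14 (chromosome 3, 122680726 to 122730840) had 68.3, 71.7, 68.1 and 69.8 CPM, overlapping groups and a log2 fold change of 0.02, which turned to -0.03 with either of these scalings. PARP9 (122527924 to 122564784) had 27.9, 29.5, 24.5 and 25.7 CPM and a log2 fold change of 0.19 ± 0.09 (SE) that did not pass (adjusted p = 0.123). DTX3L, the ubiquitin ligase that pairs with PARP9 as a protein and starts beside it on the opposite strand, had 44.98, 43.5, 32.3 and 30.4 CPM and was 1.41-fold higher (adjusted p = 5.13e-06). PARP9 and DTX3L share 175 exonic bases, and reads there cannot be assigned without the strand setting of the counting.

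For 7 genes of the list the counts were too low for a test. IFI27, a strongly inducible gene of this response, had 0 counts in every library, which allows up to 0.0942 to 0.147 CPM of the unscaled library total. IFI44L had 2, 0, 0 and 0 counts, IFNB1 and HERC6 are given above, and the restriction factor TRIM22 had 8, 2, 3 and 0 counts. RSAD2, which encodes viperin, had 6, 5, 2 and 2 counts and its neighbour CMPK2, a mitochondrial nucleotide kinase, had 12, 10, 7 and 7 counts. These 2 genes share 175 exonic bases on opposite strands. The list thus held abundant genes (ADAR, EIF2AK2, PARP14) and genes that were all but silent (IFI27, IFI44L, RSAD2) in the same cells and in both groups.

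**Figure D3:**
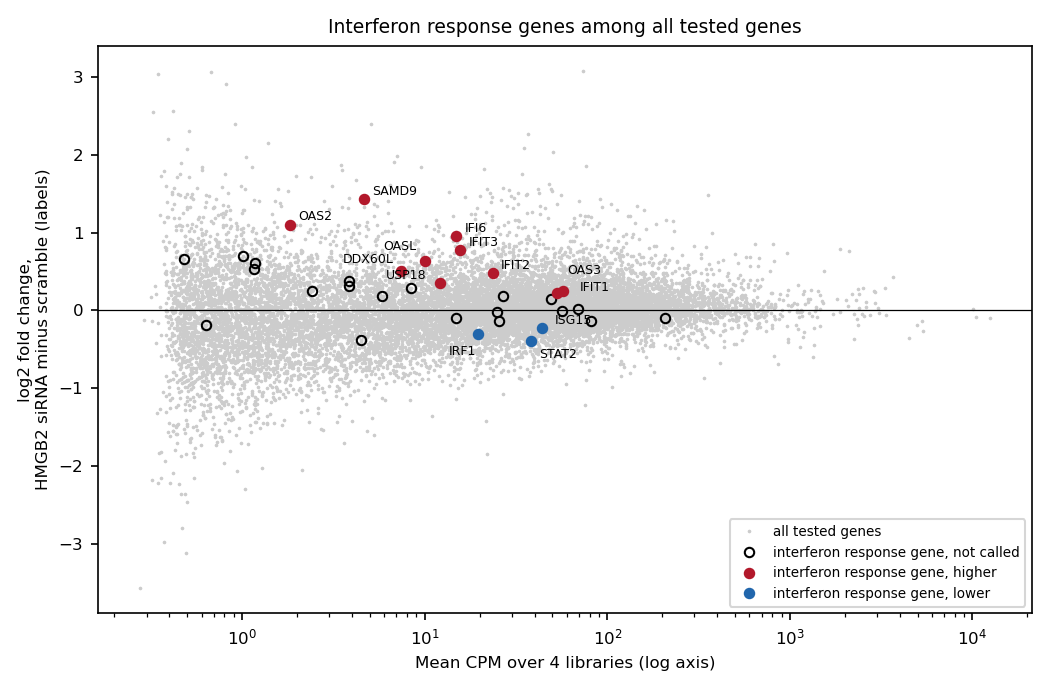
The x axis shows the mean CPM over the 4 libraries on a log scale and the y axis the log2 fold change, labelled HMGB2 siRNA (HMGB2-high) minus labelled scramble (HMGB2-low). Grey points are all 15161 tested genes, and the 33 interferon response genes spread over the cloud, with SAMD9 at 1.43 and STAT2 at -0.40 as the highest and lowest of those called.

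A wider list of 44 interferon-stimulated genes outside the 41 gave 39 tested genes, of which 13 were higher in the HMGB2 siRNA-labelled (HMGB2-high) libraries and 0 were lower. The shares were 33.3% and 0%, beside 16.7% and 14.1% of all tested genes, and the median log2 fold change was 0.26. The genes with the smallest p were IFITM1, a membrane protein that blocks virus entry, with 26.02, 27.8, 15.4 and 14.6 CPM, the peptidase gene LAP3 with 79.4, 80.4, 58.3 and 50.5 CPM, DTX3L (above), and PNPT1, a mitochondrial exoribonuclease gene, with 104, 103, 79.04 and 76.4 CPM. IFITM1 was 1.79-fold, LAP3 1.47-fold and PNPT1 1.33-fold higher, each without overlap and with adjusted p from 4.45e-09 to 3.71e-06. The chemokine genes CXCL10 (0, 2, 0 and 0 counts) and CXCL11 (0, 0, 3 and 1 counts), usual markers of a strong interferon response, were at the detection limit, as was GBP1 with 1, 3, 0 and 1 counts; these 3 were named after their values were seen. Like the main list, this one was drawn up with earlier results of these data known.

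How far single libraries carried the calls was measured by leaving out each in turn. Of the 13 called genes, 6 passed without any one of the 4 libraries: SAMD9, IFI6, IFIT3, OASL and IFIT2 among the higher ones and STAT2 among the lower ones. The other 7 lost the call at least once, and none of the 13 changed sign. With all libraries 10 genes were higher and 3 lower. Leaving out a library leaves 1 library in its group, and the number of calls then changed over all tested genes too. The median over the 33 genes was 0.29 without HMGB2 siRNA replicate 1 and 0.22 without replicate 2 of that label. That of all tested genes was -0.01 in both cases. Scramble replicate 2 had the lower value of its group for 9 of the 10 genes called higher (all but SAMD9), and the median over the 33 genes was 0.17 without it, against 0.31 without scramble replicate 1. The SAMD9 value ranged from 1.37 to 1.497 across the 4 omissions and that of IFIT3 from 0.57 to 1.05.

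**Figure D4:**
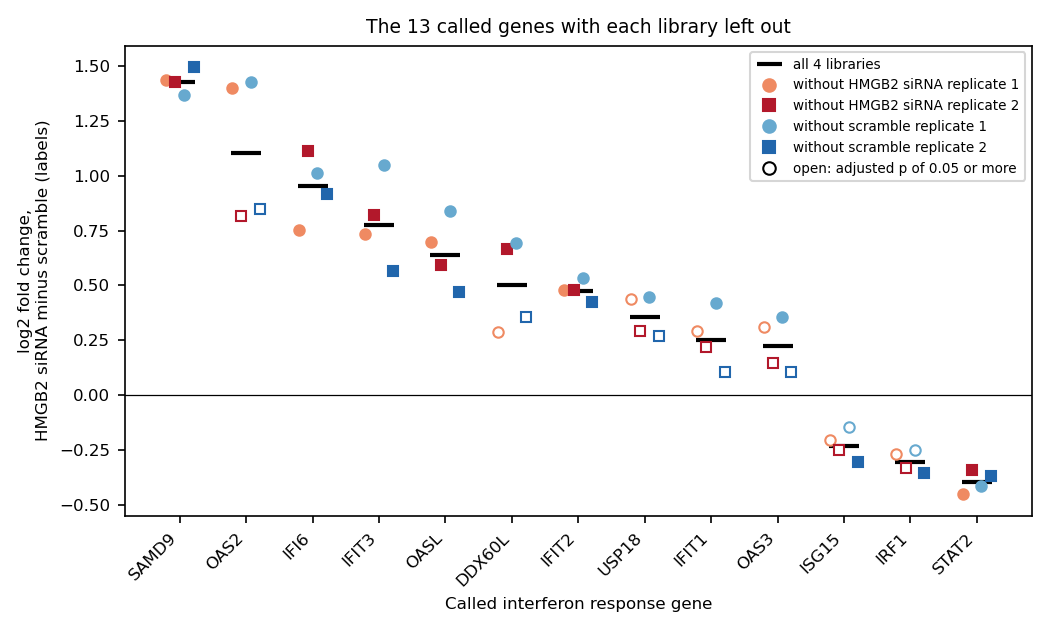
The y axis shows the log2 fold change, labelled HMGB2 siRNA (HMGB2-high) minus labelled scramble (HMGB2-low), of the 13 called genes on the x axis, with all libraries (bars) and without each library (points, open where the adjusted p was 0.05 or more). SAMD9, IFI6, IFIT3, OASL, IFIT2 and STAT2 show 4 filled points each.

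The promoters of the listed genes were searched for the ISRE, the sequence that ISGF3 binds. RefSeq promoter windows on GRCh38.p14, from 250 bases before to 50 bases after a transcript start, matched 32 of the 40 genes, with 44 windows in all since some genes have several starts. The letters searched were GAAA, any 2 bases and GAAA again, the repeated core of the ISRE, and separately TTCNNNGAA, the core of STAT dimer sites, on both strands. The ISRE core was present in at least 1 window of 21 of the 32 genes and in 25 of the 44 windows (56.8%), against 3.57% of all 35116 windows and 2.79% of the 16033 windows of tested genes. The STAT core was present in 25.0% of the windows of the listed genes, against 7.66% of all windows. All 6 of the genes called higher that had a window (IFIT1, IFIT3, OAS3, IFI6, DDX60L and SAMD9) held the ISRE core, as did 1 of the 3 called lower (ISG15) and 11 of the 17 that were tested and not called. The STAT core was found in 0 of those 6 genes and in IRF1 among the lower ones. IFIT2, OAS2, OASL and USP18 had no window and were not searched. Over all tested genes with a window, 4.15% of those called higher, 2.44% of those called lower and 3.95% of those not called held the ISRE core. A match is a run of letters and does not show that a factor is bound there.

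The 300-base windows of IFI6 and SAMD9 are shown because these 2 genes had the calls that withstood every alternative analysis, and the capitals mark the ISRE core. The IFI6 window (chr1:27672143-27672442, minus strand) held 3 matches, the first 2 with the same letters and the same 10 bases before them. The SAMD9 window (chr7:93117930-93118229, minus strand) held 1, starting 136 bases before the start, while the window of its neighbour SAMD9L held 0. Each is printed 5′ to 3′ on the strand of its gene.
IFI6: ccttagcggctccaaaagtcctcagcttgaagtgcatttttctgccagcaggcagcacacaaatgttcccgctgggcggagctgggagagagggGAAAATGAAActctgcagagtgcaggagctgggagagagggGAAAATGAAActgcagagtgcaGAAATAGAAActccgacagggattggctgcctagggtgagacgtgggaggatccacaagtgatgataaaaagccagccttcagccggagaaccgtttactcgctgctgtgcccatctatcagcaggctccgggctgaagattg
SAMD9: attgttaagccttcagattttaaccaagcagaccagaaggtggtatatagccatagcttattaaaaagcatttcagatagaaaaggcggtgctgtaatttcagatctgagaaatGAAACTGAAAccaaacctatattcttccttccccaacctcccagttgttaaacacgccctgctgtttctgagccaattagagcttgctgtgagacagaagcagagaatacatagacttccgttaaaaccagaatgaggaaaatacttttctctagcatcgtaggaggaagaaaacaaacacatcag

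Matches of other listed genes are shown with 10 bases on each side, 1 match per gene, to compare genes that were called higher with ISG15, called lower, and IFIT5, not called. In IFIT1, IFIT3 and IFIT5 the core is read on the opposite strand, as TTTC repeats.
IFIT1 (chr10:89392510-89392539, plus strand): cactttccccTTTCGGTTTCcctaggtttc
IFIT3 (chr10:89327865-89327894, plus strand): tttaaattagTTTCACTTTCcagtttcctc
OAS3 (chr12:112938321-112938350, plus strand): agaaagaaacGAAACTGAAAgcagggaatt
DDX60L (chr4:168480523-168480552, minus strand): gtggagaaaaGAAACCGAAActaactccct
ISG15 (chr1:1013380-1013409, plus strand): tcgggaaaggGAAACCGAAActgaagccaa
IFIT5 (chr10:89414513-89414542, plus strand): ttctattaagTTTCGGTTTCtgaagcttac
The IFIT1 and IFIT5 matches have the same 10 letters, TTTCGGTTTC, and IFIT1 was called higher and IFIT5 not called. Those of ISG15, called lower, and DDX60L, called higher, are both GAAACCGAAA. The other IFIT1 match, not shown, has the letters of the IFIT3 match shown, TTTCACTTTC, and both genes were called higher. Each of these genes has further matches that are not shown, and a link between the letters and the direction was not tested. The matches shown begin 103 bases before the start in IFIT1, 122 in IFIT3 and 143 in OAS3. They begin 50 bases before it in DDX60L, 107 in ISG15 and 45 in IFIT5.

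**Figure D5:**
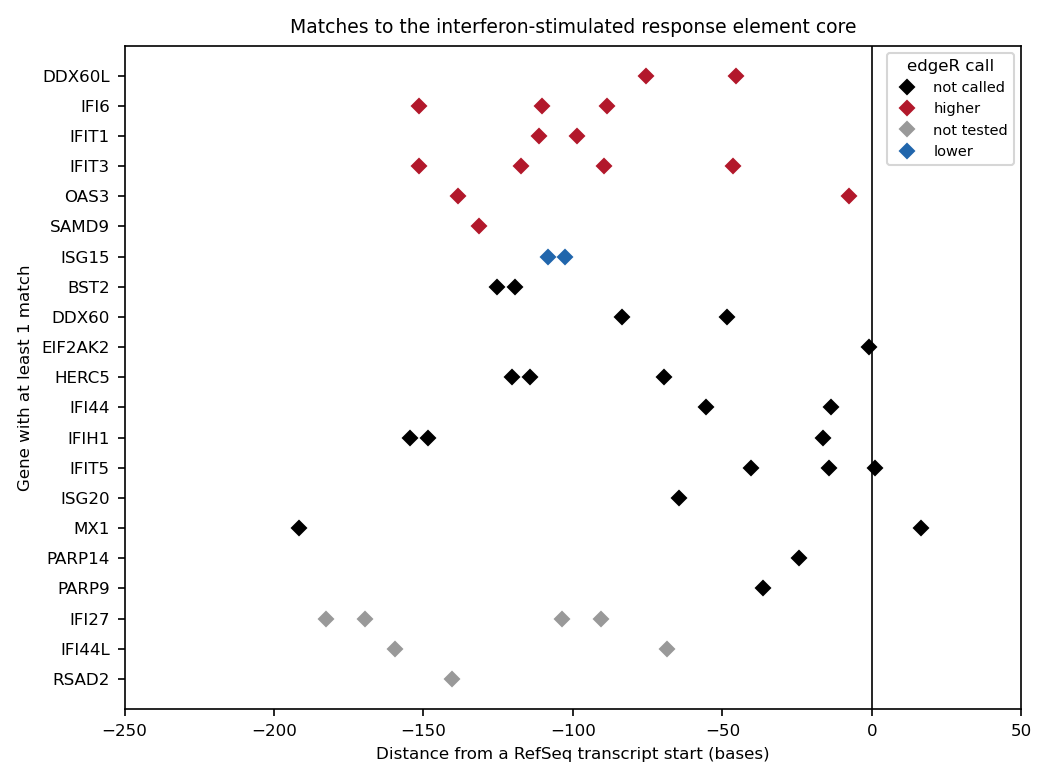
The x axis shows the distance in bases from a RefSeq transcript start and the y axis the 21 genes with at least 1 ISRE core match, and each diamond is the middle of 1 match, coloured by the call of its gene. A site that lies in 2 windows of a gene is drawn once for each start, and genes called higher, lower and not called all have matches upstream of the start, those of IFI6 beginning 156, 115 and 93 bases before it.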

How the data were processed

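Poly(A) RNA of Panc1 cells was sequenced in 4 libraries. The values used are whole-number read counts per gene as deposited by the authors, 1 table per library, and STAR, SAMtools 1.9, featureCounts of Subread 1.6.3 and DESeq2, and the build hg38 (GRCh38), are named, per the submitters' processing notes, with no role or order. The sources used here do not give the strand setting or the treatment of multimapping reads, which matters for tandem paralogues such as the IFIT, OAS and SAMD9 genes. Of the 40 genes 9 share exonic bases with another gene and 3 also have exons on alternative sequences, and none of the 13 called genes is among these. No row lacked a gene name. Single values of some pathway genes are not reported here.

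Samples were grouped by title, replicate number included, although headers and file names give the other treatment. The main test was edgeR's (4.0.16, R 4.3.3) quasi-likelihood test on group alone, after TMM scaling and filterByExpr at its defaults (smallest count 10, smallest total 15), adjusted by Benjamini-Hochberg over 15161 genes. SE values are the log2 fold change divided by the root of its F. Levels per length divide CPM by the kilobases of merged exons on the main chromosome. With 2 against 2 libraries no two-sided exact permutation p below 0.333 is possible. Replicates of each label differed by more than sampling noise (chi-square per degree of freedom 2.93 and 5.23). On simulated counts of 14923 genes for this comparison, recovery was 30.0% at a 1.25-fold change, 72.0% at 1.5-fold, 77.1% at 2-fold and 98.0% at 4-fold, with 6 false calls. Only 50, 50, 48 and 50 tested genes were changed at these folds, against 4671 genes called in the data. The adjusted p depends on how many genes change, so these shares are not the recovery of the real test.

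Members and lists were chosen with earlier results of these data known. Full values were given for called genes, for the 6 most abundant genes not called and for paralogues of called genes, and up to 4 called genes with the smallest p were named per pathway list; other genes are marked in the text or, for IFNL1, IFNL3, IFNE, IFNG and the markers, were named after their values were seen. The alternatives tried were other scalings (RLE, upper quartile, total count), no filter, a mean of at least 1 CPM, DESeq2 1.42.0, limma-voom (limma 3.58.1), the replicate number as a block, glmTreat at 1.5-fold, thinned libraries and leaving out each library. Promoters were searched with Python 3.11.15, and figures drawn with matplotlib 3.10.9.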

Additional observations from a re-analysis of the deposited data

How the results depend on the processing

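HMGB2 kept its direction and its side of the threshold under all 14 alternatives. None of the 13 called genes changed direction under any of them. SAMD9 and IFI6 stayed called throughout, and IFIT2, IFIT3, OASL and STAT2 did except in the test against a 1.5-fold change. The count of genes called higher, 10, became 6 with DESeq2 and 2 in the test against a 1.5-fold change, and ranged from 5 to 11 when 1 library was left out. The count called lower, 3, became 1 with no low-count filter, 1 with DESeq2 and 0 in the test against a 1.5-fold change, and ranged from 1 to 3 when 1 library was left out. The median over the 33 genes, 0.25, was 0.20 with both upper-quartile and total-count scaling and 0.17 to 0.31 without 1 library. Over all tested genes 2536 were higher and 2135 lower, against 1922 and 1286 with DESeq2 (no adjusted p for 2352 genes), 213 and 45 in the test against a 1.5-fold change, 1481 and 903 without HMGB2 siRNA replicate 1 and 1603 and 1024 without replicate 2 of that label. Leaving out a library reduces the samples, and the cause of the other shifts was not tested. With the replicate block 10 genes were higher and 3 lower, with a median of 0.25 and a log2 fold change of HMGB2 of 3.07, but the numbers are not known to pair the libraries (correlation of same-numbered deviations across genes -0.0144).

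Of the 20 genes not called, 5 changed sign in some alternative. IRF3 became 0.012 with no filter and 0.0024 in thinned libraries, and PARP14 became -0.030 with upper-quartile and -0.026 with total-count scaling. Without 1 library the log2 fold change ranged from -0.062 to 0.059 for IRF3, -0.0066 to 0.060 for PARP14, -0.078 to 0.033 for IFI35, -0.77 to 0.34 for IFI44 and -0.12 to 0.78 for MX1. In addition 2 genes crossed the threshold, IFIH1 without scramble replicate 1 and EIF2AK2 with upper-quartile and total-count scaling. Depth limits the genes with fewer than about 100 counts per library, such as OAS1, XAF1, BST2 and SAMD9L, where a SE of 0.37 to 0.54 hides 1.5-fold changes.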

Other observations

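Genes that restrain interferon signalling were divided between the directions. Of 14 such genes, all tested, 4 were higher and 3 lower in the HMGB2 siRNA-labelled (HMGB2-high) libraries, with a median log2 fold change of 0.04. The shares were 28.6% and 21.4%, beside 16.7% and 14.1% of all tested genes. SOCS3, an inhibitor of JAK kinases, had 31.9, 35.97, 45.3 and 52.9 CPM (HMGB2 siRNA replicates 1 and 2, scramble replicates 1 and 2), a log2 fold change of -0.54 ± 0.09 (SE; edgeR, adjusted p = 1.89e-06). The tyrosine phosphatase genes PTPN1 (73.1, 75.05, 101 and 90.1 CPM) and PTPN2 (31.97, 33.5, 40.5 and 37.9 CPM) were also lower, at -0.36 and -0.26, and the PTPN2 call was lost without each library other than scramble replicate 2 and with DESeq2. IRF2BP2, a corepressor that binds IRF2, had 216, 209.8, 186 and 188 CPM and was 1.14-fold higher, which did not pass without either HMGB2 siRNA replicate or with upper-quartile or total-count scaling. In the SOCS3 and PTPN1 genes both HMGB2-high libraries lay below both HMGB2-low libraries, the opposite sign to IRF2.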
